A study of Mus musculus with 6 samples.

Results

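The genes of the circadian clock were read from bulk RNAseq of injured mouse left ventricles. The set holds 10 of the 17556 genes in the deposited table, chosen by symbol: *Arntl* (also called *Bmal1*), *Clock*, *Per1*, *Per2*, *Per3*, *Cry1*, *Cry2*, *Nr1d1*, *Nr1d2* and *Dbp*. All 10 passed the filter on low counts. Ventricles came from 3 Cre positive and 3 Cre negative siblings, 6 to 10 weeks of age, 4 days after permanent ligation of the left anterior descending artery. Every mouse carried floxed alleles of *Yap* (both copies) and of *Wwtr1* (1 copy) and ate tamoxifen citrate chow from the time of surgery. Cre positive mice also carried MerCreMer, a tamoxifen inducible Cre, at the endogenous periostin locus, so that alleles are removed only in cells that express periostin, chiefly myofibroblasts. The RNA is that of the whole ventricle, in which fewer cells of a type and less RNA per cell cannot be told apart. The labels do not say whether a library is 1 mouse, so the p-values measure the spread between these samples. The hour at which a heart was collected is not given in the sources used here.

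The clock is a feedback loop that turns once a day in nearly every cell, including cardiomyocytes. The proteins of *Arntl* and *Clock* bind as a dimer to E-boxes and drive the *Per* and *Cry* genes, *Nr1d1*, *Nr1d2* and *Dbp*. PER and CRY proteins then block that dimer, while NR1D1 and NR1D2 (REV-ERB alpha and beta) repress *Arntl*. In mouse tissues *Arntl* RNA peaks around the end of the night, when *Nr1d1* and *Dbp* RNA is low, and the *Per* genes peak later than *Nr1d1*, towards the start of the night. Levels of genes in opposite phase are commonly used to read the phase of the clock from single samples.

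Motifs of the kind the loop is known to use were searched for in RefSeq promoter sequence of GRCm38.p6, the build that the submitters' processing notes name. Of the 10 genes 9 had at least 1 window of 250 bases before to 50 bases after a start site, 13 windows in all, and *Per2* had none. Both strands were searched for the E-box CACGTG, for the D-box TTATGNAA, which binds DBP, TEF and HLF, and for AGGTCA, the core that ROR and REV-ERB proteins share with other nuclear receptors. The matches do not overlap each other. The E-box was found in 2 of the 13 windows (*Per1* and *Cry1*), against 7.15% of 32851 windows of all genes. A D-box was found in 2 of the 13 (*Per1* and *Per3*), against 3.38% of all, and AGGTCA in 4 of the 13 (*Arntl*, *Clock*, *Nr1d2* and *Per1*), against 16.3% of all. A match is a description of the letters and does not show that a protein was bound. The windows of *Nr1d1*, *Dbp* and *Cry2* held none of the 3. The stretches below are shown because they hold the loop's own motifs at 4 of the clock genes, with the motifs in capitals (E-box and D-box in *Per1*, the E-box in *Cry1*, the D-boxes in *Per3*, the AGGTCA core in *Arntl*); the AGGTCA match of *Per1*, which is on the other strand, is left in lower case. Positions are counted from the start site, the first transcribed base being +1.
*Per1*, bases -175 to -1, plus strand, chr11:69098774-69098948: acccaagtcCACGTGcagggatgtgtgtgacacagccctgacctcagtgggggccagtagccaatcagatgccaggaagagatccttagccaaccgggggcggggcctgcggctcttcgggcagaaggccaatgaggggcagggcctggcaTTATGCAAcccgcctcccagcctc
*Per3*, bases -220 to -121, minus strand, chr4:151044786-151044885: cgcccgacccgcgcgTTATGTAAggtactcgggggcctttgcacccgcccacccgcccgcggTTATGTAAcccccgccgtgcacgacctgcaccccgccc
*Cry1*, bases -100 to -1, minus strand, chr10:85185055-85185154: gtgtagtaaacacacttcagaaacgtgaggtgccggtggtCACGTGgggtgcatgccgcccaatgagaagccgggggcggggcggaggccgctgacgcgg
*Arntl*, bases 20 to 49 after a start site, plus strand, chr7:113207530-113207559: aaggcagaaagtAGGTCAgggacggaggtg

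Depth was similar between ventricles, with 13177888 to 14827579 estimated counts each. Of 13817 genes tested, 1 had an adjusted p under 0.05 between genotypes (edgeR, quasi-likelihood). The floxed genes were not detectably lower in RNA of the whole ventricle, with log2 fold changes of 0.028 for *Yap1* (adjusted p = 0.935, edgeR) and 0.046 for *Wwtr1* (adjusted p = 0.876, edgeR). Cre negative replicate 1 stood apart in its cell type markers, with a summed cardiomyocyte level of 72180 TPM (transcript abundance scaled to gene length and library size; 8 markers) against 52746 to 60168 TPM in the other 5 ventricles and a summed smooth muscle level of 481 TPM (5 markers) against 873 to 1098 TPM. Its summed neutrophil level (6 markers) was 415 TPM, against 48.4 to 156 TPM elsewhere, and the gene *Ly6g* was listed at 0 in 4 ventricles. Not every marker went with its sum. The neutrophil marker *Csf3r* was lowest in Cre negative replicate 1, at 12.3 TPM against 17.4 to 25.9 TPM. The cardiomyocyte marker *Myl2* was 10382 TPM there and 8655 to 12257 TPM elsewhere. The smooth muscle marker *Smtn* was 104 TPM there and 106 to 119 TPM elsewhere. All 8 cardiomyocyte markers were present in every ventricle.

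Several clock genes differed widely between ventricles of the same genotype (*Dbp*, *Per2*, *Per3*, *Nr1d1*, *Arntl* and *Nr1d2*, 2.07 to 6.17 times within the Cre negative ones), while *Clock*, *Cry1*, *Cry2* and *Per1* differed by at most 1.6 times within a genotype. Cre negative replicate 2 held the most *Dbp*, *Nr1d1*, *Nr1d2* and *Per3* and the least *Arntl*, whereas replicate 3 of each genotype held the least *Dbp*, *Nr1d1*, *Nr1d2* and *Per3* and the most *Arntl*. Between Cre positive and Cre negative ventricles, 0 of the 10 genes passed edgeR's test, as against 0.00724% of all genes tested. The ranges of all 10 overlapped in TPM and in normalized counts. In normalized counts the genotypes did not overlap for 14.4% of all genes tested.

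*Arntl* (gene number 11865, chr7:113178471-113314126 on GRCm38.p6) encodes BMAL1, the clock's driving factor. Its level was 12.3, 10.6 and 22.9 TPM in Cre negative replicates 1, 2 and 3 and 17.7, 17.4 and 24.5 TPM in the Cre positive ones. Replicate 3 of each genotype was thus the highest, as it was for 5.23% of all genes tested, and the genotypes overlapped. The means were 15.2 ± 6.68 TPM (SD, n = 3) without Cre and 19.9 ± 4.00 TPM (SD, n = 3) with it. In edgeR's fit, Cre positive over Cre negative came to 0.27 on the log2 scale (95% interval -0.39 to 0.93, SE 0.28, adjusted p = 0.782).

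*Clock* (gene number 12753, chr5:76209868-76305603) encodes the partner of BMAL1 and is known to oscillate little in RNA. It was 10.0, 8.69 and 10.3 TPM in the Cre negative ventricles and 9.62, 11.9 and 12.1 TPM in the Cre positive ones. Its highest ventricle held 1.39 times the TPM of the lowest, the narrowest range of the 10 genes. The log2 fold change of 0.077 had the narrowest interval too, -0.20 to 0.35.

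**Figure D1:**
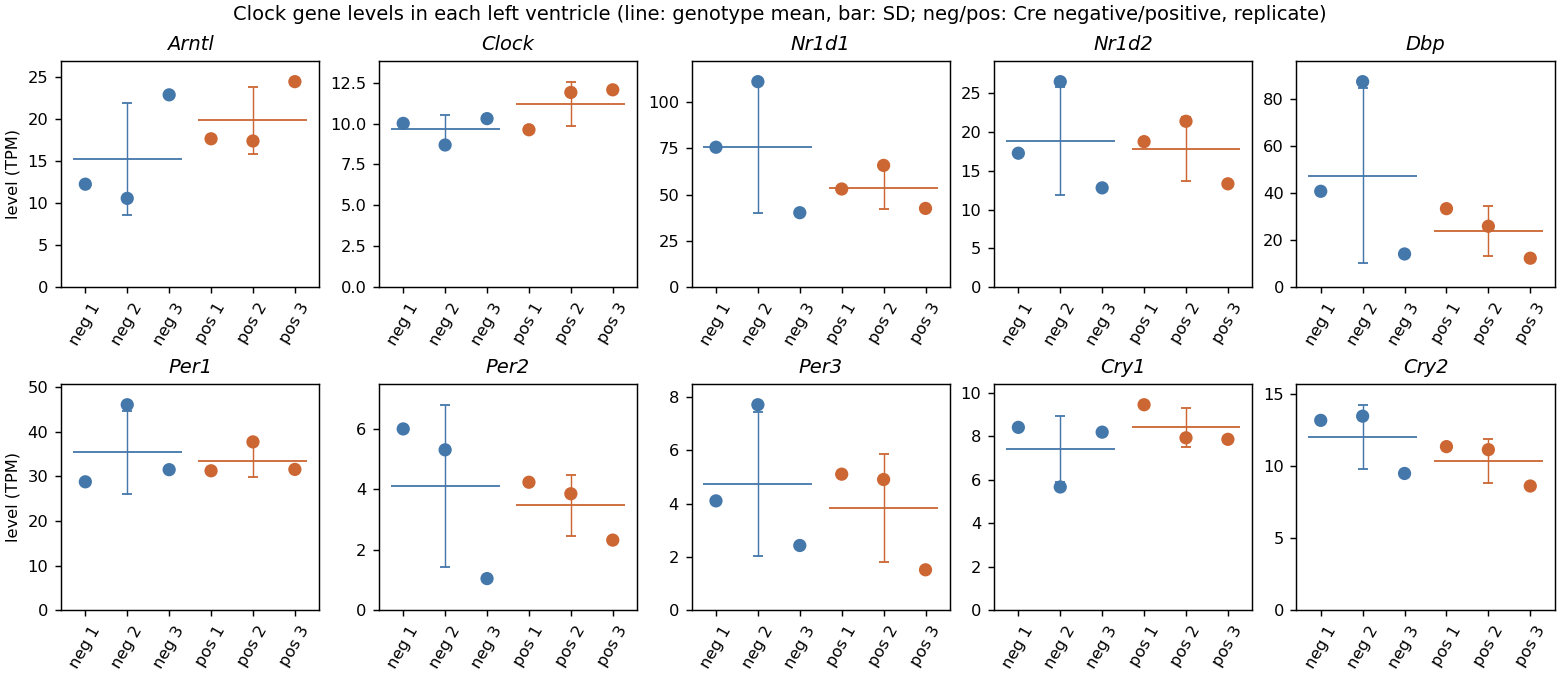
Level of each clock gene (vertical axis, TPM from 0) in each left ventricle (horizontal axis, Cre negative in blue and Cre positive in orange, by replicate), with the genotype mean as a line and the SD as a bar (n = 3). *Dbp* runs from 12.4 to 87.3 TPM, and replicate 3 of each genotype is low in *Nr1d1*, *Nr1d2*, *Dbp*, *Per2*, *Per3* and *Cry2* and high in *Arntl*.

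*Nr1d1* (gene number 217166, chr11:98767932-98775377), which encodes the repressor REV-ERB alpha, was the most abundant of the 10 genes, with a median of 59.4 TPM. It was 75.5, 110.9 and 40.2 TPM in Cre negative replicates 1, 2 and 3 and 53.0, 65.7 and 42.5 TPM in Cre positive replicates 1, 2 and 3. Replicate 3 of each genotype was the lowest, and Cre negative replicate 2 stood 2.76 times above Cre negative replicate 3. By edgeR, the log2 fold change came to -0.61 (95% interval -1.40 to 0.17, SE 0.34, adjusted p = 0.714), a difference that did not pass the test.

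*Nr1d2* (gene number 353187, chr14:18204056-18239106), the gene of REV-ERB beta, had the same order at the ends. Its level was 17.3, 26.5 and 12.8 TPM without Cre and 18.8, 21.4 and 13.3 TPM with it. The genotype means, 18.8 ± 6.97 TPM and 17.8 ± 4.11 TPM (SD, n = 3 each), differed by less than the spread in either genotype. A log2 fold change of -0.20 (95% interval -0.82 to 0.43) was found.

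*Dbp* (gene number 13170, chr7:45705100-45710203), an output of the loop that encodes a factor binding D-boxes, had the widest range. In Cre negative replicates 1, 2 and 3 it was 40.8, 87.3 and 14.2 TPM, resting on 469, 1090 and 176 estimated counts. Cre positive replicates 1, 2 and 3 held 33.4, 25.9 and 12.4 TPM, from 405, 311 and 148 counts. The highest ventricle was thus 7.07 times the lowest over all 6, and 6.17 times within the Cre negative ventricles alone. Between genotypes edgeR gave a log2 fold change of -1.10 (95% interval -2.53 to 0.32, SE 0.61, adjusted p = 0.714), and an exact two-sided permutation test of the TPM gave p = 0.4, where 3 against 3 allow no p under 0.1.

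The *Per* genes encode the inhibitors that accumulate after the BMAL1 peak. *Per2* (gene number 18627, chr1:91415977-91459351) was 5.99, 5.3 and 1.05 TPM in the Cre negative ventricles and 4.23, 3.85 and 2.32 TPM in the Cre positive ones. The lowest value, in Cre negative replicate 3, rests on 48 counts and the highest, in Cre negative replicate 1, on 241. Unlike *Dbp*, *Per2* was thus highest in Cre negative replicate 1, although replicate 2 lay close to it.

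*Per3* (gene number 18628, chr4:150997018-151044707) was 4.10, 7.70 and 2.43 TPM in the Cre negative ventricles and 5.10, 4.90 and 1.52 TPM in the Cre positive ones. It was lowest in Cre positive replicate 3, with 83 counts, and the only gene of the 10 to vary more than 3-fold within each genotype, by 3.17 times without Cre and 3.36 times with it. *Per1* (gene number 18626, chr11:69095108-69109965), which also responds to hormones and stress, moved less, at 28.8, 46.0 and 31.5 TPM without Cre and 31.3, 37.7 and 31.6 TPM with it. Only Cre negative replicate 2 and, less so, Cre positive replicate 2 lay above the other ventricles in *Per1*.

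The cryptochromes, partners of the PER proteins in repression, went different ways. *Cry2* (gene number 12953, chr2:92403646-92434085) was 13.2, 13.5 and 9.49 TPM without Cre and 11.4, 11.1 and 8.62 TPM with it, again lowest in replicate 3 of each genotype. *Cry1* (gene number 12952, chr10:85131700-85185054), which is known to peak later in the night than the *Per* genes, was 8.41, 5.67 and 8.19 TPM without Cre and 9.45, 7.93 and 7.86 TPM with it. Cre negative replicate 2, the highest in *Cry2* by TPM, was the lowest in *Cry1*. In normalized counts *Cry2* was highest in Cre negative replicate 1, at 455 against 418 in Cre negative replicate 2.

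In all, 6 of the 10 genes (*Per2*, *Per3*, *Cry2*, *Nr1d1*, *Nr1d2* and *Dbp*) had their 2 lowest TPM values in replicate 3 of the genotypes, which 4.23% of all genes tested did. The same 2 ventricles differed little from each other in *Nr1d1*, *Nr1d2* and *Arntl*, although one was Cre negative and the other Cre positive. They differed more in *Per2*, with 1.05 TPM in the Cre negative and 2.32 TPM in the Cre positive one, and, the other way round, in *Per3*, with 2.43 and 1.52 TPM.

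**Figure D2:**
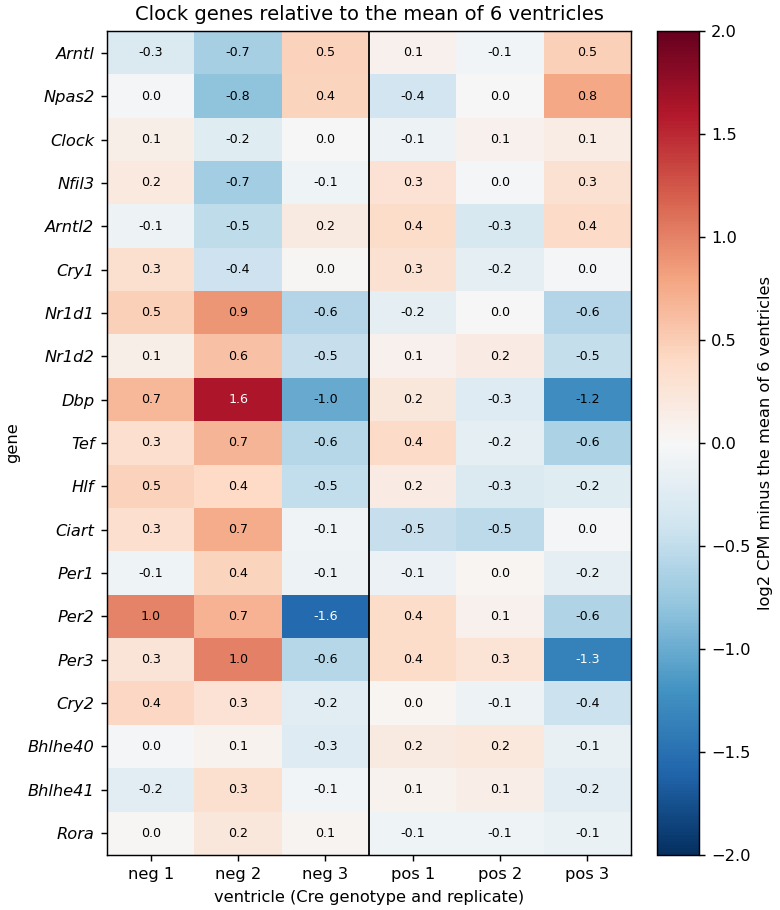
Expression of the 10 clock genes and 9 other clock transcription factors (rows) in each ventricle (columns), as log2 CPM (counts scaled to library size) minus the mean of the 6 ventricles, with the value in each cell. Cre negative replicate 2 has 1.62 for *Dbp* and -0.67 for *Arntl*, and replicate 3 of each genotype has -1.01 and -1.25 for *Dbp*.

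The relation of each gene to *Arntl* was then measured over the 6 ventricles, on log2 CPM with a prior count of 2. The correlations have exact two-sided permutation p-values, adjusted over the 9 relations computed. *Nr1d1* ran opposite to *Arntl* almost without scatter, with Pearson's r = -0.99 (exact p = 0.00278, adjusted p = 0.0188) and Spearman's rho = -0.94 (exact p = 0.0167, adjusted p = 0.05). *Dbp* had r = -0.97 (exact p = 0.00417, adjusted p = 0.0188) and the same rho of -0.94. *Nr1d2* had r = -0.97 (exact p = 0.00694, adjusted p = 0.0208) and again rho = -0.94. Without the 2 ventricles farthest from the median of *Arntl*, Cre negative replicate 2 and Cre positive replicate 3, r was -0.98 for *Nr1d1*, -0.89 for *Dbp* and -0.90 for *Nr1d2*. As deviations from the genotype means, r was -0.99, -0.96 and -0.98, none of which passed after adjustment (adjusted p = 0.125 each); permutation within genotypes allows no exact p under 0.0278. On log2 TPM, r for *Nr1d2* was -0.81 (adjusted p = 0.0771, exact permutation), which no longer passed, while *Nr1d1* and *Dbp* had -0.96 each (adjusted p = 0.0188).

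The other relations were looser on log2 CPM. *Per3* had r = -0.90 (exact p = 0.0278, adjusted p = 0.0458; rho = -0.77, adjusted p = 0.132) and *Cry2* r = -0.87 (exact p = 0.0306, adjusted p = 0.0458; rho = -0.89, adjusted p = 0.06). *Per2* had r = -0.83 (exact p = 0.0444, adjusted p = 0.0571; rho = -0.83, adjusted p = 0.0875). For *Per1*, r = -0.83 (exact p = 0.0236, adjusted p = 0.0458; rho = -0.89, adjusted p = 0.06) fell to -0.36 without the same 2 ventricles and to -0.49 on log2 TPM, so this relation rests on those ventricles and on the scale. *Per3* had r = -0.84 on log2 TPM (adjusted p = 0.0771, exact permutation), which did not pass. *Per2*, *Per3* and *Cry2* kept -0.95, -0.83 and -0.84 without them. *Clock* (r = 0.54, exact p = 0.267, adjusted p = 0.3; rho = 0.49, adjusted p = 0.4) and *Cry1* (r = 0.35, exact p = 0.486, adjusted p = 0.486; rho = 0.20, adjusted p = 0.714) had no detectable relation, and without the 2 ventricles their r was -0.56 and -0.29.

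**Figure D3:**
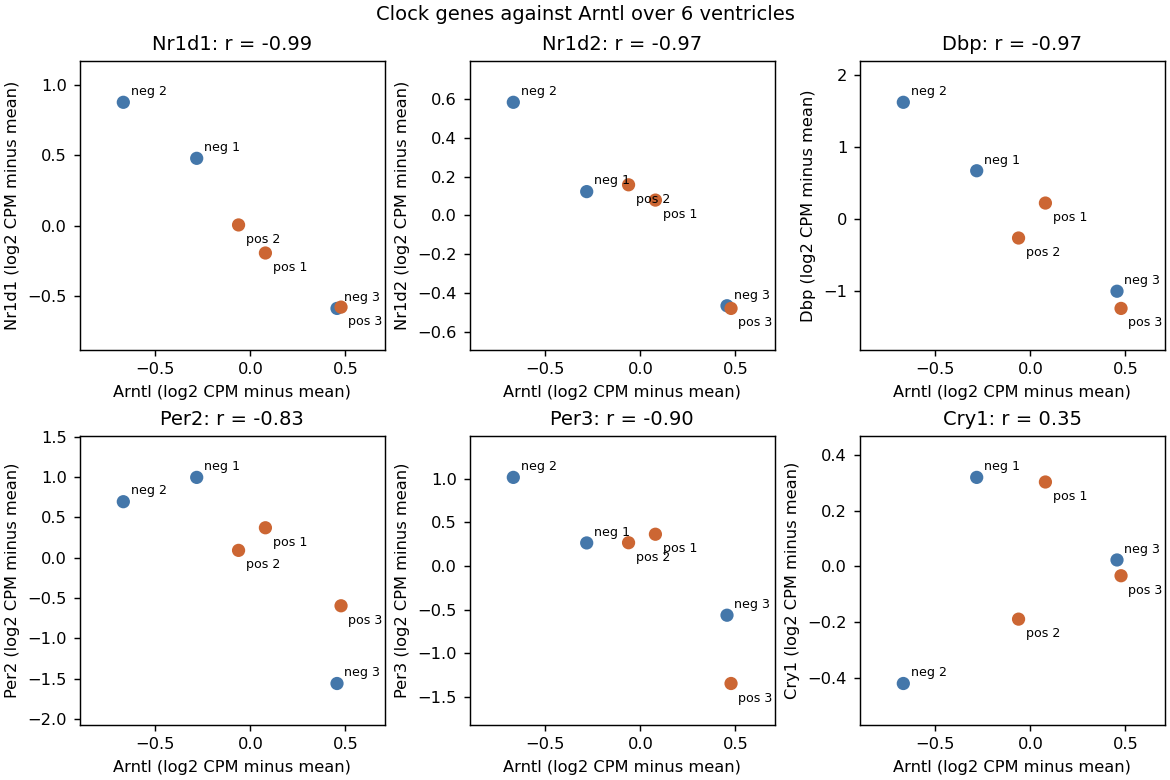
Each panel plots 1 clock gene (vertical axis) against *Arntl* (horizontal axis), both as log2 CPM minus the mean of 6 ventricles, with Cre negative ventricles in blue and Cre positive in orange. The points of *Nr1d1* fall along a descending line (r = -0.99), with ventricles of both genotypes along it, and those of *Cry1* do not (r = 0.35).

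Of the 9 genes 3 had an r with *Arntl* of at least 0.9 in size, against 0.659% of the other 13816 genes tested. By the rule for likeness, the genes closest to *Arntl* over 6 ventricles were *C1galt1*, *Map3k8* and *Ambra1* (r = 0.998, 0.980 and 0.974), and the most opposed were *Angel1*, *Nr1d1* and *Triap1* (r = -0.994, -0.992 and -0.986). *Nr1d1* was thus among the 3 most opposed of these 13816 genes. Apart from *Nr1d1*, these genes differed less between ventricles than *Arntl* did, *C1galt1* from 5.59 to 7.69 TPM and *Angel1* from 4.68 to 5.84 TPM.

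Ratios of genes in opposite phase put each ventricle on 1 scale. The log2 ratio of *Dbp* to *Arntl* TPM was 1.73, 3.04 and -0.69 in Cre negative replicates 1, 2 and 3 and 0.92, 0.57 and -0.99 in Cre positive replicates 1, 2 and 3. The ventricles spanned 4.03 on this log2 scale, *Dbp* exceeding *Arntl* in 4 of them and lying below it in replicate 3 of each genotype. *Nr1d1* gave the same lowest and highest ventricles, from 0.80 in Cre positive replicate 3 to 3.39 in Cre negative replicate 2. *Per3* over *Arntl* ran from -4.01 to -0.46 between the same 2 ventricles, and *Per2* over *Arntl* was lowest in Cre negative replicate 3 (-4.45). The genotype means of the *Dbp* ratio, 1.36 ± 1.90 without Cre and 0.17 ± 1.01 with it (SD, n = 3), differed by less than the larger of these SDs.

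The variation between ventricles of 1 genotype was large for most of these genes. *Dbp* had an SD within genotype of 1.08 on the log2 scale, and 145 of the 13817 genes tested had a larger one. *Per2* followed with 1.05 and *Per3* with 0.88. *Nr1d1* had 0.58, *Arntl* 0.45 and *Nr1d2* 0.45, whereas *Cry1* had 0.32, *Cry2* 0.29, *Per1* 0.23 and *Clock* 0.16. In normalized counts 3 of the 10 genes differed by 3 times or more between the highest and lowest ventricle (*Dbp* 7.40, *Per2* 6.08 and *Per3* 5.24 times), against 7.37% of all genes tested. The median SD of the 10 genes was 0.45, against 0.18 for all genes tested. Since low counts scatter more, each gene was also set beside the 1000 genes nearest in mean expression. There *Dbp* was exceeded by 2 genes, *Per2* and *Per3* by 8 each, *Nr1d1* by 12, *Nr1d2* by 29 and *Arntl* by 43. These 6 of the 10 genes lay above the 90th percentile of such neighbours, which 10.1% of all genes did. *Clock* had 345 of the 1000 above it. Some of these SDs rested on 1 ventricle. Without Cre negative replicate 3, that of *Per2* was 0.42, that of *Nr1d1* 0.29 and that of *Arntl* 0.28, and 4 of the 10 genes (*Per3*, *Nr1d1*, *Nr1d2* and *Dbp*) lay above the 90th percentile. Without Cre negative replicate 2 that of *Per1* was 0.092, and the count stayed at 6.

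**Figure D4:**
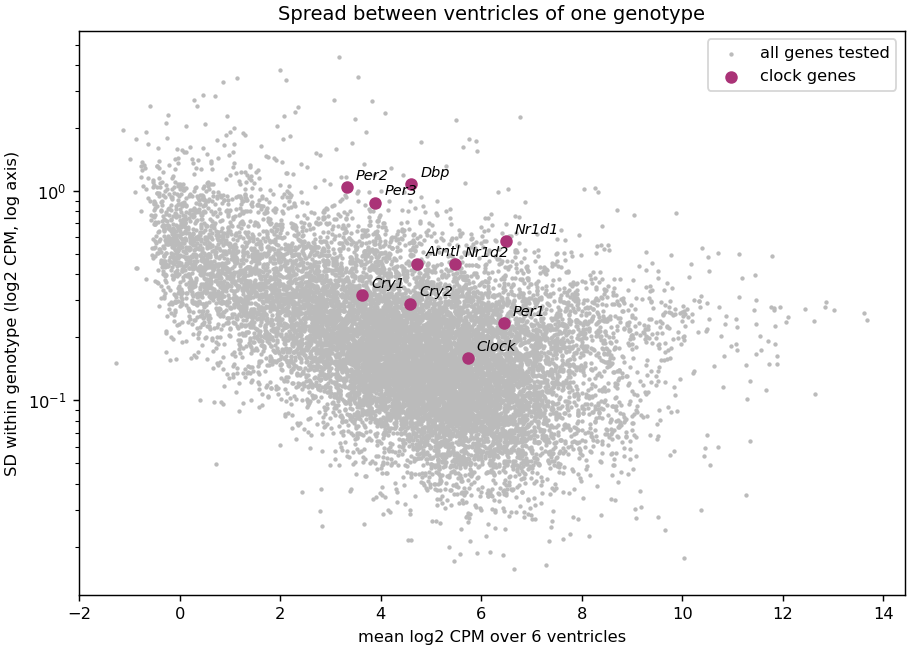
SD within genotype (vertical axis, log2 CPM, log axis) against mean expression over 6 ventricles (horizontal axis, log2 CPM) for all 13817 genes tested in grey and the 10 clock genes in purple. *Dbp* (1.08), *Per2* (1.05) and *Per3* (0.88) lie near the upper edge, and *Clock* (0.16) lies among the bulk.

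The levels of the clock genes were compared between genotypes to ask whether removal of *Yap* and *Wwtr1* in myofibroblasts moved the clock of the ventricle. By edgeR's quasi-likelihood test 0 of the 10 genes had an adjusted p under 0.05, as against 0.00724% of all genes tested, and 0 had an unadjusted p under 0.05, as against 5.83%. DESeq2's Wald test and limma on log2 TPM also called 0 of the 10 at the adjusted threshold. In normalized counts the genotypes overlapped for all 10 genes, while they did not for 14.4% of all genes tested. The log2 fold changes were below 0 for 7 genes and above 0 for *Arntl*, *Clock* and *Cry1*, with a median of -0.27 (-0.47 without Cre negative replicate 3, -0.077 without Cre negative replicate 2 and -0.11 without Cre positive replicate 3) against 0.0062 for all genes. All 8 cardiomyocyte markers were below 0 as well, with a median of -0.32, while 6 of the 7 fibroblast markers were above 0, with a median of 0.12. The part of cell types in the median of the clock genes was not tested. On log2 TPM the median of all genes was itself 0.125, *Per2* turned to 0.043 and the median of the 10 genes was -0.05. The intervals allow sizeable changes, -1.69 to 0.92 for *Per2* (log2 fold change -0.39), -1.60 to 0.72 for *Per3* (-0.44), -0.78 to 0.10 for *Cry2* (-0.34), -0.56 to 0.18 for *Per1* (-0.19) and -0.47 to 0.55 for *Cry1* (0.039).

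**Figure D5:**
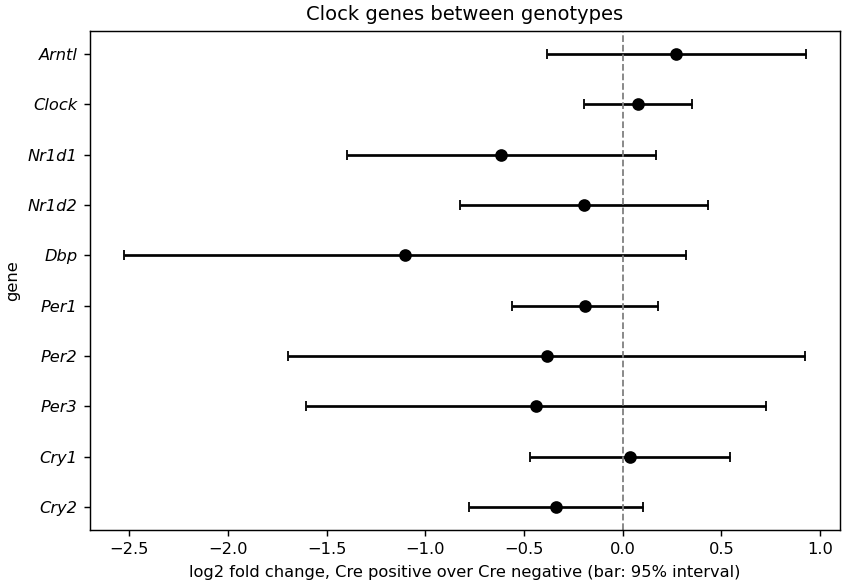
Log2 fold change of each clock gene, Cre positive over Cre negative (horizontal axis), with its 95% interval from edgeR's quasi-likelihood fit as a bar (n = 3 per genotype). Every interval crosses 0, and that of *Dbp*, from -2.53 to 0.32, is the widest.

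The size of these differences depended on which ventricles of either genotype entered. Without Cre negative replicate 3 the log2 fold change was -1.55 for *Dbp*, -0.93 for *Nr1d1* and 0.65 for *Arntl*, and 5 of the 10 genes (with *Per2* and *Cry2*) had an unadjusted p under 0.05 from edgeR, as against 9.61% of all genes in that fit, with no adjusted p under 0.509. A replicate block, which takes the replicate numbers as pairs although the labels give them no such meaning, left 0 of the 10 past the adjusted threshold and 4 (*Nr1d1*, *Arntl*, *Cry2* and *Dbp*) with an unadjusted p under 0.05, as against 8.81% of all genes (edgeR). Without Cre negative replicate 2 the value was -0.37 for *Dbp*, -0.28 for *Nr1d1* and 0.046 for *Arntl*. In that fit 0 of the 10 genes had an unadjusted p under 0.05 (edgeR), as against 902 of all 13971 genes. Without Cre positive replicate 3 it was -0.79 for *Dbp*, -0.47 for *Nr1d1*, 0.095 for *Arntl*, -0.065 for *Per3* and -0.025 for *Nr1d2*.

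Summed marker levels were read in Cre negative replicates 2 and 3, the Cre negative ventricles farthest apart in *Dbp*, *Nr1d1*, *Nr1d2*, *Arntl* and *Per3*. The summed cardiomyocyte level was 59509 TPM in Cre negative replicate 2 and 60168 TPM in Cre negative replicate 3, where *Dbp* was 87.3 and 14.2 TPM. The summed fibroblast level (7 markers) was 7248 and 6459 TPM in these 2 ventricles, and over all 6 it ran from 4501 to 8323 TPM. In Cre negative replicates 2 and 3 the neutrophil sum was 85.9 and 48.4 TPM and the smooth muscle sum 873 and 981 TPM. The macrophage sum was 1530 and 1583 TPM and the endothelial sum 491 and 511 TPM. The part of cell types in the clock gene levels was not tested. Y-linked genes summed to 0.70 TPM in Cre negative replicate 2 and 0.81 TPM in Cre positive replicate 2, against 66.0 to 88.6 TPM in the other 4, and *Dbp* in that pair of ventricles was 87.3 and 25.9 TPM. The part of sex in the levels was not tested beyond a fit with these counts as covariate, in which 0 of the 10 genes had an adjusted p under 0.05 (edgeR).

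Clock factors outside the 10 genes fell on either side in the same ventricles. *Npas2*, which can take the place of *Clock* as the partner of BMAL1, was 5.04, 3.26 and 7.85 TPM in the Cre negative ventricles and 4.39, 6.20 and 10.4 TPM in the Cre positive ones, highest in replicate 3 of each genotype, like *Arntl*. *Tef*, a D-box factor related to *Dbp*, was 34.3, 48.7 and 20.6 TPM without Cre and 39.6, 29.1 and 20.4 TPM with it, lowest in replicate 3 of each genotype. *Nfil3*, the repressor that competes for D-boxes, was 23.9, 14.4 and 22.4 TPM without Cre and 28.7, 25.4 and 30.7 TPM with it, lowest in Cre negative replicate 2. Its genotypes thus did not overlap in TPM. In normalized counts they did, with 415 in Cre negative replicate 1 and 357 in Cre positive replicate 2.

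*Hlf*, the remaining D-box factor of that family, ran from 2.40 to 4.35 TPM, and *Ciart*, an inhibitor of the dimer, from 2.37 to 5.48 TPM. Both were highest by TPM in Cre negative replicate 2. In normalized counts *Hlf* was highest in Cre negative replicate 1, at 193 against 184 in Cre negative replicate 2. *Rora*, an activator that shares sites with the REV-ERB repressors, differed by 1.37 times in TPM between the highest and lowest ventricle. *Bhlhe40* and *Bhlhe41*, repressors that bind E-boxes, differed by 1.5 and 1.64 times. Of the 11 clock transcription factors outside the 10 genes, 0 had an adjusted p under 0.05 between genotypes and 1 had an unadjusted p under 0.05 (5.83% of all genes tested did), *Ciart* (log2 fold change -0.73, adjusted p = 0.714, edgeR). The 10 genes of clock kinases and ubiquitin ligases, such as *Csnk1d* and *Csnk1e*, which set the stability of PER and CRY proteins, had 0 with an adjusted or unadjusted p under 0.05.

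Some of the genes share sequence with a neighbour. *Nr1d1* overlaps *Thra* by 1075 bases and *Dbp* overlaps *Sphk2* by 741 bases in RefSeq, and these were the only genes of the 10 with counts that were not whole. *Thra* lay between 62.1 TPM in Cre positive replicate 1 and 82.1 TPM in Cre positive replicate 3, and *Sphk2* between 37.3 TPM in Cre negative replicate 1 and 42.7 TPM in Cre positive replicate 1. *Per3* overlaps *Uts2* by 4714 bases, and *Arntl*, *Clock*, *Per2* and *Cry2* overlap long noncoding genes. Whether counting used the strand is not given in the sources used here.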

How the data were processed

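Libraries of left ventricle RNA were analysed as 3 Cre positive and 3 Cre negative samples, grouped by their labels. The submitters' processing notes name Bowtie2 2.2.5, RSEM 1.2.12 and GRCm38.p6. The authors deposited estimated counts per gene (not normalized; 11.46% not whole), TPM scaled by them to length and library, and FPKM, which was not used, as were the authors' mean columns. A deposited comparison of the genotypes (log2 fold change, p-value and q-value, DESeq2) was not used. Estimated counts were rounded, filtered with filterByExpr (minimum count 10, minimum total 15), scaled by TMM and tested over 13817 genes with edgeR 4.0.16 in R 4.3.3 without covariates, with Benjamini-Hochberg adjustment (threshold 0.05). On simulated counts with these means and dispersions this test called 65 of 98 genes changed 2-fold, 95 of 99 changed 4-fold and 13 unchanged genes, of 13708 tested. The changed genes were drawn at random from all genes tested, whose median SD within genotype was 0.18, against 0.45 for the 10 clock genes. These counts therefore do not give the share of changed clock genes that the test would call. Levels are deposited TPM. Correlations used log2 CPM with exact permutations. DESeq2 1.42.0 and limma 3.58.1 (log2 of TPM + 0.1) served as alternatives. With 3 counts as the limit that a count of 0 allows, the floor was 0.202 to 0.228 CPM (95%); it covers counting error only. Named genes are the 10 members, genes of the fixed lists, the 3 genes most like and most unlike *Arntl*, and the floxed genes. Single cell type markers and the genes that overlap members in RefSeq are named as well. Members and lists were chosen with earlier results of these data known. The paper linked to the series does not describe this experiment, and nothing but its style was used. Some genes of the lists are not reported here by name.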

Additional observations from a re-analysis of the deposited data

How the results depend on the processing

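No clock gene had an adjusted p under 0.05 in any of the fits run, nor under 0.1. Over all genes 1 was called. DESeq2's Wald test called 5, limma on log2 TPM 2, and fits without 1 of the ventricles 0 to 2. The replicate numbers are shared by the genotypes. Over all genes, ventricles with the same number deviated together with r of 0.354, 0.0726 and -0.0318, and the main fit did not treat them as paired. Replicate 2 of each genotype had almost no Y-linked RNA (0.70 and 0.81 TPM), and replicate 3 of each had the most *Arntl* (22.9 and 24.5 TPM). The labels do not settle whether the ventricles were paired. A fit with a replicate block called 0 genes (1217 with an unadjusted p under 0.05), and of the clock genes 0, with 4 at an unadjusted p under 0.05 (8.81% of all genes). Leaving out a ventricle turned the sign of small log2 fold changes, with ranges of -0.017 to 0.16 for *Clock*, -0.29 to 0.013 for *Per1*, -0.85 to 0.038 for *Per2*, -0.75 to 0.040 for *Per3*, -0.14 to 0.22 for *Cry1* and -0.43 to 0.091 for *Nr1d2*. The sign turned without Cre negative replicate 2 for *Clock*, *Per1*, *Per3*, *Cry1* and *Nr1d2*, without Cre negative replicate 1 for *Per2* and without Cre positive replicate 1 for *Cry1* (-0.11). On the TPM scale limma gave 0.043 for *Per2*. The r with *Arntl* ranged from -0.996 to -0.982 for *Nr1d1*, -0.99 to -0.93 for *Dbp*, -0.98 to -0.93 for *Nr1d2*, -0.94 to -0.84 for *Per3*, -0.90 to -0.82 for *Per2*, -0.92 to -0.82 for *Cry2*, -0.95 to -0.59 for *Per1*, -0.10 to 0.77 for *Clock* and -0.40 to 0.66 for *Cry1* when a ventricle was left out. The exact permutation p over the remaining 5 ventricles, adjusted over 9 relations, then ran from 0.05 to 0.09 for *Nr1d1*, and from 0.0375 to 0.15 for *Dbp* and for *Nr1d2*. On log2 TPM, *Per1* (-0.49), *Per3* (-0.84) and *Nr1d2* (-0.81) no longer passed the adjusted threshold, while *Cry2* (-0.97), *Nr1d1* (-0.96) and *Dbp* (-0.96) passed. The cause was not tested. As deviations from the genotype mean, r was -0.99 for *Nr1d1*, -0.98 for *Nr1d2*, -0.96 for *Dbp*, -0.89 for *Per3*, -0.85 for *Cry2* and -0.79 for *Per1*, and none passed after adjustment. The difference between genotypes in the log2 ratio to *Arntl* (Cre positive minus Cre negative) ranged from -2.22 to -0.35 for *Dbp*, -1.57 to -0.28 for *Nr1d1*, -1.52 to -0.05 for *Per3* and -1.53 to 0.19 for *Per2*, above 0 without Cre negative replicate 1, Cre negative replicate 2 or Cre positive replicate 3. The median SD of the 10 genes ranged from 0.32 to 0.51, and the count above the 90th percentile of genes of like expression, recomputed without each ventricle after the data had been seen, from 4 to 8. With 3 ventricles per genotype, a permutation test of 1 gene allows no p under 0.1.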

Other observations

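Genes known to follow the clock in heart also differed between ventricles. *Tcap*, a sarcomere protein gene driven by the clock, was 1273, 1280 and 575 TPM in Cre negative replicates 1, 2 and 3 and 741, 552 and 543 TPM in Cre positive replicates 1, 2 and 3, so that only Cre negative replicates 1 and 2 were high. *Ucp3*, a mitochondrial carrier, was 6.72, 27.4 and 4.69 TPM without Cre and 4.98, 6.43 and 6.06 TPM with it, high in Cre negative replicate 2 alone. *Klf15*, a regulator of cardiac metabolism, was 38.0, 27.0 and 20.8 TPM without Cre and 19.8, 18.3 and 20.04 TPM with it. Its genotypes did not overlap in TPM or in normalized counts, and in normalized counts 14.4% of all genes tested did not overlap. All 8 genes of the heart output list had log2 fold changes below 0, with a median of -0.54 (edgeR), and 7 of 8 without Cre negative replicate 1, with a median of -0.27. Over all genes tested 48.8% lay below 0, and the 8 cardiomyocyte markers were below 0 as well (median -0.32), 7 of 8 without Cre negative replicate 1 (median -0.15). None had an adjusted p under 0.05, and 2 had an unadjusted p under 0.05, *Tcap* (log2 fold change -0.90) and *Klf15* (-0.68), as did 5.83% of all genes tested. The summed cardiomyocyte level was also highest in Cre negative replicate 1, and the part of the cardiomyocyte markers' shift in these values was not tested.

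The glucocorticoid response list, fixed because *Per1* responds to these hormones, held 9 genes. Among them were *Per1* itself and *Tsc22d3*, which the list of rhythmic output genes of many organs also holds. All 9 log2 fold changes were below 0 (median -0.33, edgeR), 8 of them on log2 TPM (median -0.19) and 7 without Cre negative replicate 1 (median -0.16). This stood beside the same 8 of 8 cardiomyocyte markers below 0 (median -0.32, and -0.20 on log2 TPM), whose part was not tested here either. Of the 9 glucocorticoid genes 0 had an adjusted p under 0.05, and *Tsc22d3* (-0.29) and *Klf9* (-0.34) had an unadjusted p under 0.05, as 5.83% of all genes tested did. *Zbtb16* was 17.6 TPM in Cre negative replicate 1 and 2.56 to 7.04 TPM in the other 5 ventricles. *Usp2*, a rhythmic gene of many organs, was 54.6 and 52.5 TPM in Cre negative replicates 1 and 2 and 27.7 to 31.9 TPM in the other 4. The list of 6 such genes had 4 log2 fold changes below 0, 2 above and a median of -0.029 (edgeR), with 0 at an adjusted p under 0.05 and 2 (*Usp2*, -0.67, and *Tsc22d3*, which is in both lists) at an unadjusted p under 0.05, and *Tspan4* was lowest in Cre negative replicate 1 (69.4 TPM). The immediate early list of 8 genes had 0 with an unadjusted p under 0.05, and its summed level lay between 313 and 374 TPM.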
